A study of Mus musculus with 2 samples.

Results

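Genes that carry glucose to pyruvate, lactate and pentose phosphates were compared between 2 RNA libraries of Treg cells (regulatory T cells) sorted from mouse muscle after injury. The set was chosen by symbol: 35 symbols were asked for, and 34 of the 23337 rows of the table matched one exactly. Pkm had no row of its own, and Pkm2, an older symbol of the same pyruvate kinase gene, did. The mice were 8-week-old males of the Foxp3-IRES-GFP/C57BL/6 background, in which a green fluorescent protein is made along with Foxp3, the factor that defines Treg cells. Leg muscles of both groups (gastrocnemius, quadricep and tibialis anterior) were damaged with cardiotoxin, a snake toxin that destroys muscle fibres. One group received 0.3 ug of recombinant IL-33 in the muscle, an alarm cytokine that Treg cells of tissues respond to, and the other received the buffer PBS. Muscles were taken on day 4, and 5000 Treg cells per library were sorted. Each group had 1 library, and the number of mice behind it is not given in the sources used here, so differences below are between these libraries and not shown for the treatments.

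Glycolysis splits glucose into pyruvate in the cytosol and yields a small amount of ATP without oxygen. Lactate dehydrogenase turns pyruvate into lactate, which leaves the cell through monocarboxylate transporters, while the pyruvate dehydrogenase complex sends pyruvate into mitochondria for oxidation. The pentose phosphate pathway branches off at glucose 6-phosphate and makes NADPH and ribose. Activated effector T cells are known for high glycolysis and Treg cells for a greater reliance on mitochondrial oxidation. The transcription factor HIF-1, of which Hif1a encodes the oxygen-regulated subunit, is known to bind near many genes of glucose uptake, glycolysis and lactate export.

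The upstream sequences of 4 genes are shown because they carry the results that follow: Ldha is the most abundant enzyme gene of the set by length-corrected level, and Slc2a1, Ldhb and Slc16a1 are the best-counted genes that differed by 2-fold or more. Capitals mark the core letters bound by HIF-1, ACGTG or GCGTG, on either strand (CACGT or CACGC when read on the other). Each sequence runs 5′ to 3′ along the gene and ends at the RefSeq transcript start on GRCm38.p6, except for Slc2a1, which ends 34 bases before it, where the first GENCODE exon begins.
Ldha, chr7:46845554-46845803, plus strand: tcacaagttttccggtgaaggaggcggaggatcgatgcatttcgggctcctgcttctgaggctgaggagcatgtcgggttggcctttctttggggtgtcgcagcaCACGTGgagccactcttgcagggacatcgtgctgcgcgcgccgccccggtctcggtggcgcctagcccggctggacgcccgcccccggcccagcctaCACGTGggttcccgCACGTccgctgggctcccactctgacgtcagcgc
Slc2a1, chr4:119108495-119108710, plus strand: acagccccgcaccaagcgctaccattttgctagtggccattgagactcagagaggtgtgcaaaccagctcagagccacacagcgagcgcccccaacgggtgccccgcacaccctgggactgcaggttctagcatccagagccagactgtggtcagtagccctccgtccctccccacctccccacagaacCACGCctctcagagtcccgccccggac
Ldhb, chr6:142507958-142508207, minus strand: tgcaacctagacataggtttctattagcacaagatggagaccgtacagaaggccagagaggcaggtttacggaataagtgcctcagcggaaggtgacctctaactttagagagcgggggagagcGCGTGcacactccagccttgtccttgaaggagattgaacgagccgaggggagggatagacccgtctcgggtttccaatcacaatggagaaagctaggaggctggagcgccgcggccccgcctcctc
Slc16a1, chr3:104638414-104638663, plus strand: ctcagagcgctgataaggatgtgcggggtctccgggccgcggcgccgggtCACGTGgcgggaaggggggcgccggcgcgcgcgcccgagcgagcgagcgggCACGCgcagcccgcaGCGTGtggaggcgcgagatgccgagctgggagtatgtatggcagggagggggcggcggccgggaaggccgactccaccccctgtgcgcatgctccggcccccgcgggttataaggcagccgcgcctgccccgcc
Within the 250 bases upstream, Ldha had 5 matches at the start shown and 1 at a second RefSeq start downstream (chr7:46846832-46847081). The letters CACGTG, which are also the E-box read by MYC-type factors, count as a match on each strand, and the Ldha window shown held them in 2 places. Slc16a1 had 4 matches and CACGTG once, Slc2a1 had 2 matches (1 of them in the stretch shown) and Ldhb had 1. Of the 33 pathway genes with a RefSeq window, 30 (90.9%) held at least 1 match, against 41.5% of all 27025 genes with a window and 63.4% of the 6525 such genes expressed over the floor used below. The upstream windows of the pathway genes were rich in G and C, with a median of 60.8% against 52.4% over all genes and 60.0% over expressed genes. Among windows with at least 55% G and C, 32 of 36 from the pathway genes (88.9%) and 58.3% of all 13478 held a match. The 13478 were not limited to expressed genes, and windows of the same gene can overlap and hold the same match. A gene counted above if any of its windows matched, and the 33 pathway genes had 47 windows, against 32851 for the 27025 genes. CACGTG was present for 5 pathway genes (15.2%) and for 10.3% of expressed genes. These letters are short, a match is not a bound site, and binding was not measured here.

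The IL-33 library held 4080791 counts and the PBS library 1573707. A single count equals 0.245 CPM (count divided by the library total, times 1000000) in the first and 0.635 CPM in the second. The Treg and T cell markers Foxp3, Il2ra, Ctla4, Ikzf2, Cd3e, Cd3g and Cd4 were all detected in both libraries, at a summed 10392 CPM (IL-33) and 10725 CPM (PBS), although Foxp3 had 40 counts with IL-33 and 1 with PBS. Of 16 markers of skeletal muscle fibres, which are rich in glycolytic enzymes, 9 had 0 counts in both libraries (Ckm, Myh2, Tnni2, Tnnc2, Mb, Actn3, Casq1, Pvalb and Pgam2), and all 16 together gave 24 counts (5.88 CPM) and 17 counts (10.8 CPM). Of 6 fibroblast markers, 0 were detected with IL-33 and 3 with PBS, where Col3a1, Dcn and Pdgfra summed to 66.1 CPM. The 13 monocyte and macrophage markers summed to 3450 CPM and 2638 CPM, nearly all of it Ccr2 and Ctsb, which Treg cells also express. Among the others, Lyz2 had 78 counts (19.1 CPM) with IL-33 and 61 counts (38.8 CPM) with PBS. Itgam went the other way, with 66 counts (16.2 CPM) and 12 counts (7.63 CPM), and Cd68 had 0 counts in both. Of 4 red cell markers, Alas2 alone was detected, with 14 counts in the PBS library. The part of these other cells in the differences below was not tested. In bulk RNA, fewer cells of a type and less RNA per cell cannot be told apart.

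The summed level of the pathway was nearly equal in both libraries. The 34 genes took 0.503% of all counts with IL-33 (Wilson 95% interval 0.497 to 0.510) and 0.513% with PBS (0.502 to 0.524), which is 5035 CPM and 5132 CPM. Their ratio, IL-33 over PBS, was 0.981 (exact 95% interval 0.956 to 1.01). These intervals and all others given here cover counting error only, and say nothing of variation between mice. They treat each read as an independent molecule, which reads of amplified RNA are not, so they may be too narrow even for counting error. Scaling by trimmed means (TMM) in place of library totals raises the log2 of every CPM ratio by 0.12, and folds taken with a pseudocount by less where counts are low. It gave 1.07 (1.04 to 1.09) for the same sum, so a difference of this size has no settled direction.

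**Figure D1:**
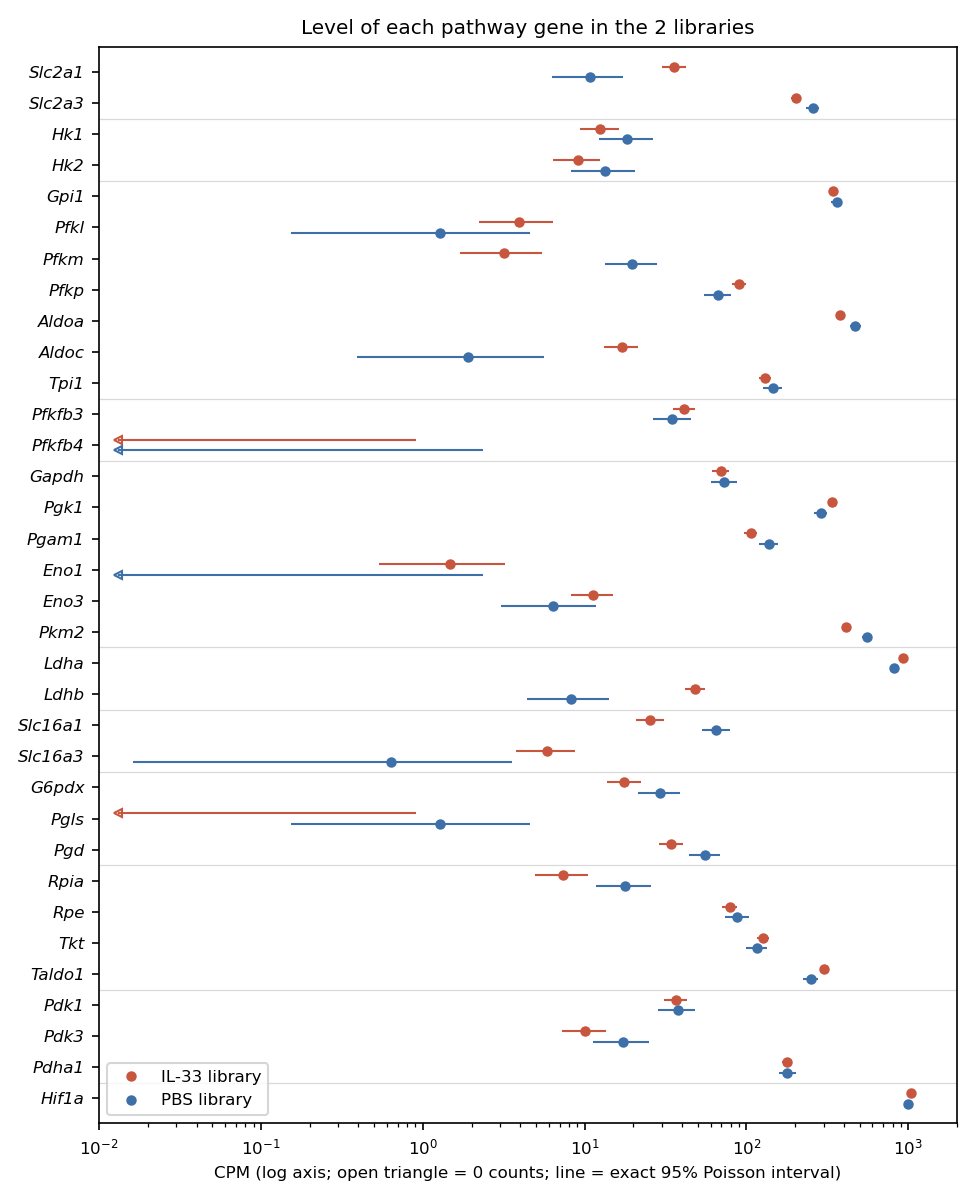
Level of each of the 34 pathway genes in CPM (horizontal log axis) in the IL-33 library (red) and the PBS library (blue), grouped by pathway step from glucose entry at the top to Hif1a at the bottom. Points are the measured levels, lines are exact 95% Poisson intervals and open triangles mark 0 counts. Hif1a and Ldha lay near 1000 CPM in both libraries, and the intervals of the 2 libraries lay farthest apart among genes of lower level, such as Pfkm, Slc2a1 and Ldhb.

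For single genes, folds were taken on log2 of CPM plus a pseudocount of 1, which understates differences of low genes. Of the 34 genes, 30 had at least 5 CPM in at least 1 library. Of these 30, 4 were higher with IL-33 by 2-fold or more (Slc2a1, Aldoc, Ldhb and Slc16a3), 3 were lower by as much (Pfkm, Slc16a1 and Rpia) and 23 were within 2-fold. Over all 9005 genes that passed the same floor, 15.5% were 2-fold higher and 16.3% were 2-fold lower, so the pathway's 13.3% and 10% were no greater than the background. The median log2 fold was -0.07 over the 30 genes and -0.08 over all genes. The counting interval of the ratio lay above 1 for 8 of the 30 (26.7%) and below 1 for 10 (33.3%), against 28.6% and 35.1% of all 9005 genes, so these shares too were near the background.

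The background depended on level. Among all genes with a mean under 20 CPM, 56.7% differed by 2-fold or more in either direction, against 23.3% between 20 and 100 CPM and 5.04% at 100 CPM or more. Of the pathway genes, 2 of 8 were higher and 2 lower under 20 CPM (background 29.5% and 27.2%). Between 20 and 100 CPM, 2 of 10 were higher and 1 lower (background 9.62% and 13.7%). At 100 CPM or more, 0 of 12 were higher and 0 lower (background 2.45% and 2.59%). These 12 abundant genes had ratios between 0.752 (Pkm2) and 1.21 (Taldo1). The SD of their log2 folds was 0.248, against 0.488 over all 2044 genes at 100 CPM or more. That range has no upper limit and levels were not matched within it. The 12 genes reach a mean of 1015 CPM (Hif1a), so the 2 SDs are not compared at equal level.

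**Figure D2:**
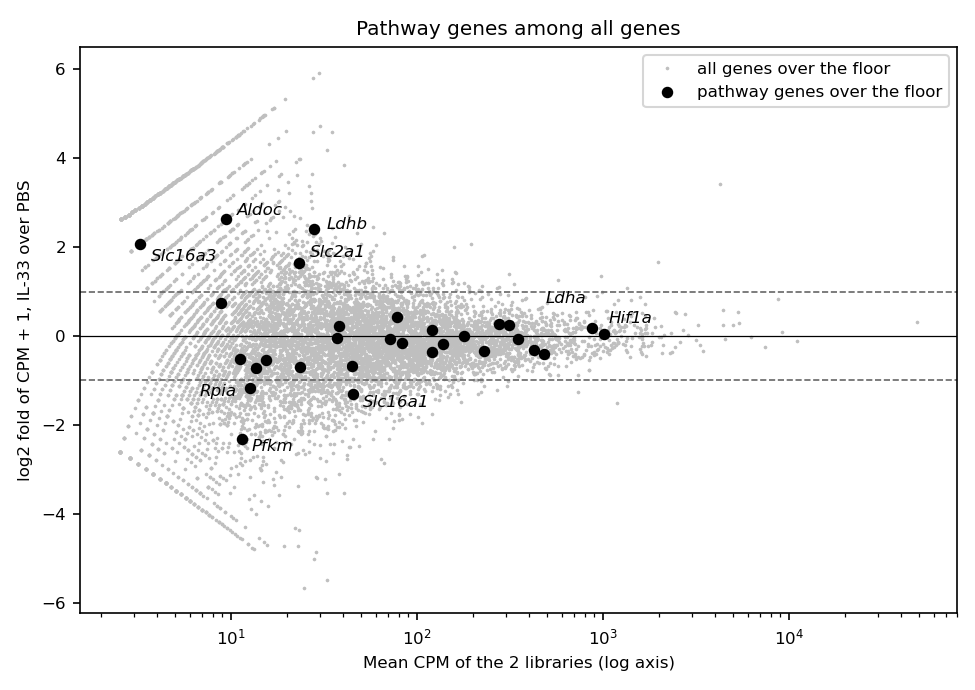
Log2 fold of CPM plus 1, IL-33 over PBS (vertical), against the mean CPM of the 2 libraries (horizontal, log axis) for all 9005 genes over the floor (grey) and the 30 pathway genes over it (black). Dashed lines mark 2-fold. The 7 pathway genes past the dashed lines all have a mean under 100 CPM, where grey points spread widely too.

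Glucose enters T cells through the transporters GLUT1 and GLUT3. Slc2a1, which encodes GLUT1, had 146 counts (35.8 CPM) with IL-33 and 17 counts (10.8 CPM) with PBS, and the ratio was 3.31 (2.00 to 5.84). Its locus is on chromosome 4, 119108711 to 119137983 (GRCm38, plus strand, protein coding). Slc2a3, which encodes GLUT3, had 828 counts (203 CPM) and 403 counts (256 CPM), with a ratio of 0.792 (0.703 to 0.895). The transporters therefore stood in opposite order, with Slc2a1 higher in the IL-33 library and Slc2a3 higher in the PBS library. Per kilobase of merged exon, Slc2a3 remained above Slc2a1 in both, at 28.0 against 10.2 CPM per kilobase (IL-33) and 35.3 against 3.08 (PBS). The share of Slc2a1 in the counts of the pair was 15.0% (Wilson 95% interval 12.9 to 17.4) and 4.05% (2.54 to 6.39). Summed, glucose entry was 239 CPM and 267 CPM, a ratio of 0.894 (0.797 to 1.01) that hides the difference within the pair.

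Hexokinases trap glucose as glucose 6-phosphate. Hk1, the widely expressed form, had 51 counts (12.5 CPM) and 29 counts (18.4 CPM), and Hk2, the inducible form, had 37 counts (9.07 CPM) and 21 counts (13.3 CPM). The ratio was 0.678 for Hk1 (0.422 to 1.11) and 0.679 for Hk2 (0.387 to 1.22), and both intervals held 1. Hk1 took 58.0% of the pair's counts in both libraries. Summed, the pair was at 21.6 CPM and 31.8 CPM, a ratio of 0.679 (0.474 to 0.981). Under TMM scaling the ratio was 0.738 and its interval, 0.516 to 1.07, held 1.

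In upper glycolysis, glucose 6-phosphate is isomerised, phosphorylated again and split. Gpi1, the isomerase, was nearly level at 342 CPM (1397 counts) and 360.3 CPM (567 counts). Phosphofructokinase, the committed step, is made from liver, muscle and platelet type subunits encoded by Pfkl, Pfkm and Pfkp. Pfkp, the main form here by counts, had 367 counts (89.9 CPM) and 105 counts (66.7 CPM), a ratio of 1.35 (1.08 to 1.69). Pfkm went the other way, with 13 counts (3.19 CPM) after IL-33 and 31 counts (19.7 CPM) after PBS, at a ratio of 0.162 (0.0777 to 0.318). Pfkm lies on chromosome 15, 98092589 to 98132451, plus strand. Pfkl was under the floor, with 16 counts and 2 counts, and its ratio of 3.09 had an interval of 0.725 to 27.7.

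Pfkm thus took 3.28% of phosphofructokinase counts with IL-33 (1.93 to 5.53) and 22.5% with PBS (16.3 to 30.1). Corrected for merged exon length, Pfkm and Pfkp stood at 53.3% and 45.0% in the PBS library, and at 11.6% and 81.3% in the IL-33 library. The lead of Pfkm in the PBS library depends on the length used, since Pfkp leads there per longest transcript. Pfkm is the form of muscle fibres, and the muscle fibre markers given above summed to 5.88 CPM and 10.8 CPM. Most of that sum was Mylpf, with 17 counts (4.17 CPM) and 12 counts (7.63 CPM), at a ratio of 0.546 (0.246 to 1.25). The muscle fibre sum (24 counts and 17 counts), the fibroblast markers (0 and 66.1 CPM) and Alas2 were lower in the IL-33 library. Eno3, the muscle form of enolase, was higher there at a ratio of 1.77 (0.883 to 3.94), an interval that held 1. The monocyte and macrophage sum was also higher there, at 3450 CPM against 2638 CPM. Within it Lyz2 and Ctsb were lower, and Ccr2, Itgam (66 counts against 12) and Mrc1 (17 counts against 0) were higher. The part of these cells was not tested.

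Aldolase splits fructose 1,6-bisphosphate, and triose phosphate isomerase interconverts the products. Aldoa, the main aldolase, had 1542 counts (378 CPM) and 742 counts (471 CPM), a ratio of 0.801 (0.734 to 0.876). Aldoc, the form best known from brain, had 69 counts (16.9 CPM) and 3 counts (1.91 CPM), and the ratio of 8.87 had bounds of 2.91 and 44.1. Aldoc is on chromosome 11, 78322968 to 78327781, plus strand. Even in the IL-33 library it was a minor form, at 4.28% of aldolase counts (3.40 to 5.39), against 0.403% (0.137 to 1.18) in the PBS library. Tpi1, the isomerase, was at 129.6 CPM and 146 CPM, and its ratio of 0.891 (0.761 to 1.04) did not differ from 1 beyond counting error. The 7 genes of upper glycolysis summed to 964 CPM and 1067 CPM, a ratio of 0.903 (0.853 to 0.957), but TMM scaling gave 0.982 with an interval that held 1 (0.928 to 1.04).

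Fructose 2,6-bisphosphate, the strongest activator of phosphofructokinase, is made and removed by the PFKFB enzymes. Pfkfb3, the form with the highest kinase activity, had 168 counts (41.2 CPM) and 55 counts (34.9 CPM), a ratio of 1.18 (0.864 to 1.63). Pfkfb4 had 0 counts in both libraries, which allows up to 0.735 CPM and 1.91 CPM. The other family members, from a list of related genes, were low in the PBS library: Pfkfb2 had 105 counts (25.7 CPM) against 2 counts (1.27 CPM), a ratio of 20.2 (5.47 to 169). Pfkfb1 had 54 counts against 8, a ratio of 2.60 (1.23 to 6.33).

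**Figure D3:**
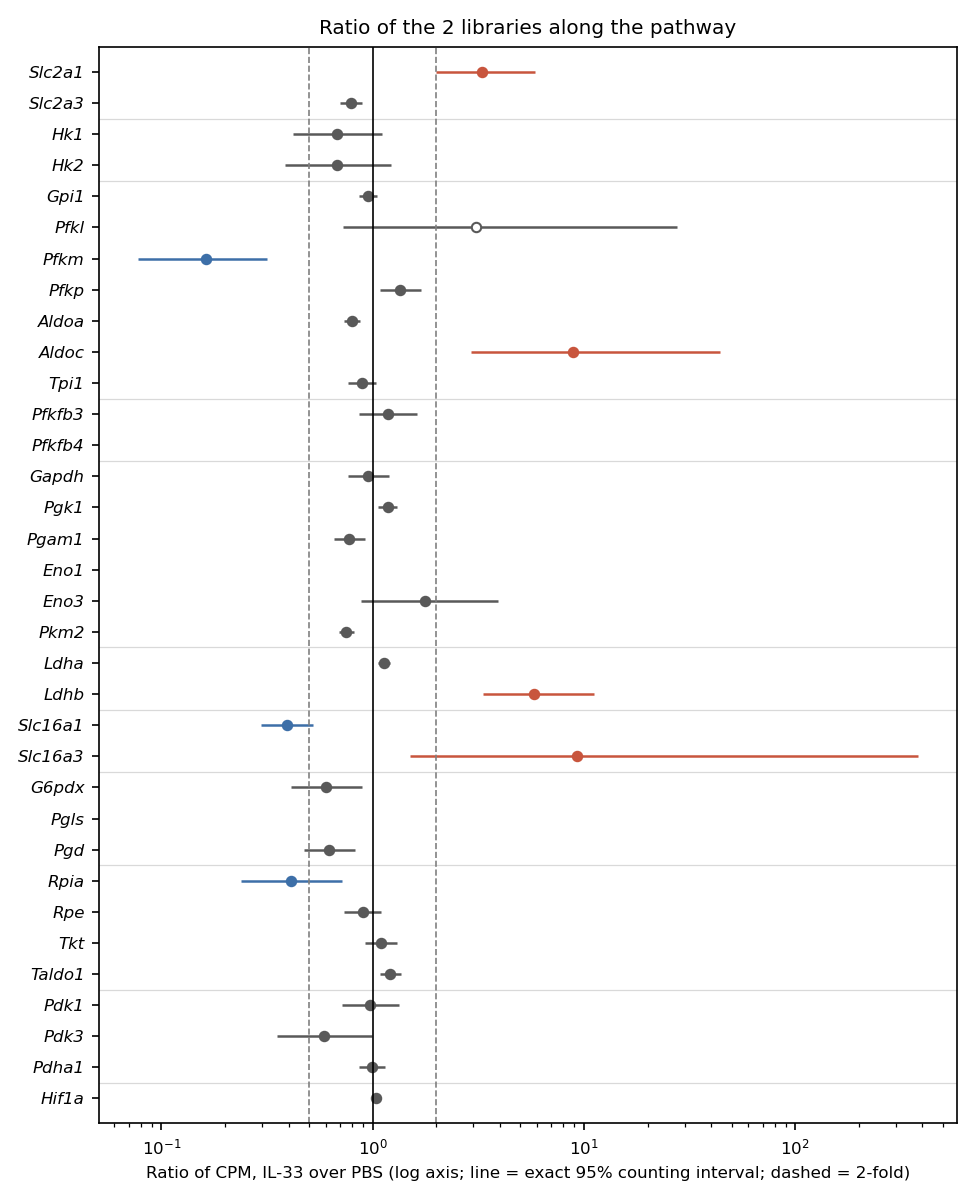
Ratio of CPM, IL-33 over PBS (horizontal log axis), for each pathway gene in pathway order, with exact 95% counting intervals as lines. Red points are at least 2-fold higher, blue points at least 2-fold lower, grey points within 2-fold, and the open point (Pfkl) is under the floor; dashed lines mark 2-fold, and Pfkfb4, Eno1 and Pgls have no point because a library had 0 counts. Most of the well-counted enzymes sit close to 1, and wide lines mark the thinly counted genes.

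Lower glycolysis yields ATP and pyruvate. Gapdh, which forms the high-energy phosphate of this stage, had 283 counts (69.3 CPM) and 115 counts (73.1 CPM), a ratio of 0.949 (0.761 to 1.19). Pgk1, the first ATP-yielding kinase, was slightly higher in the IL-33 library, at 339 CPM (1384 counts) against 288 CPM (453 counts), a ratio of 1.18 (1.06 to 1.31). Pgam1, the mutase, was slightly lower, at 106 CPM (432 counts) against 137 CPM (215 counts), a ratio of 0.775 (0.656 to 0.917). Pyruvate kinase, listed as Pkm2, had 1693 counts (415 CPM) and 868 counts (552 CPM), a ratio of 0.752 (0.693 to 0.817). The table holds this gene as 1 row, so its M1 and M2 splice forms, which differ in regulation, cannot be separated.

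Enolase genes were thinly counted. Eno1, the enolase of most cells, had 6 counts with IL-33 and 0 with PBS, where 0 counts allow up to 1.91 CPM. Eno3, the muscle form, had 46 counts (11.3 CPM) and 10 counts (6.35 CPM), a ratio of 1.77 (0.883 to 3.94). Both enolase genes were far below their neighbours in the pathway per kilobase, with Eno1 at 0.273 CPM per kilobase in the IL-33 library against 53.4 for Pgam1 and 83.0 for Pkm2. Summed, the 6 genes of lower glycolysis stood at 942 CPM and 1055 CPM, a ratio of 0.892 (0.842 to 0.946). Without Pkm2 the ratio was 1.05, so that gene sets the direction of the sum, and under TMM scaling the interval held 1 (0.971, 0.916 to 1.03).

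Sequence shared with other genes bears on these levels. The reads were 25 bases long, and for each gene the share of 25-base windows of its longest coding transcript that occur in a GENCODE transcript of any other gene was counted on both strands. That share was 84.9% for Gapdh, whose windows recur in 364 annotated pseudogenes. For Eno1 it was 78.8%, chiefly through the annotated gene Eno1b, which has no row under that symbol. It was 68.4% for Pgk1, 56.9% for Pkm2, 47.2% for Ldhb, 43.9% for Aldoa, 42.8% for Gpi1, 42.3% for Pgam1 and 39.4% for Ldha. In all, 11 of the 34 genes shared at least 25% of their windows, and 18 shared under 5%. How reads with several matches were counted is not given in the sources used here, so levels of these 11 genes are uncertain. In the IL-33 library Pgk1 stood at 151 CPM per kilobase, Gapdh at 16.8 and Eno1 at 0.273. The part of shared sequence in these levels was not tested. Slc2a1 (2.53%), Pfkm (0.0701%), Aldoc (0.0724%), Slc16a1 (0.136%), Slc16a3 (0%) and Rpia (0%) share little or nothing. Of the genes past 2-fold, Ldhb alone has a large shared part, with 1 pseudogene, Gm5514. Exons of 15 of the 34 genes overlap an exon of another annotated gene, among them Pfkm (10.7% of exon bases) and G6pdx (13.6%), and use of strand in the counting is not given in the sources used here.

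**Figure D4:**
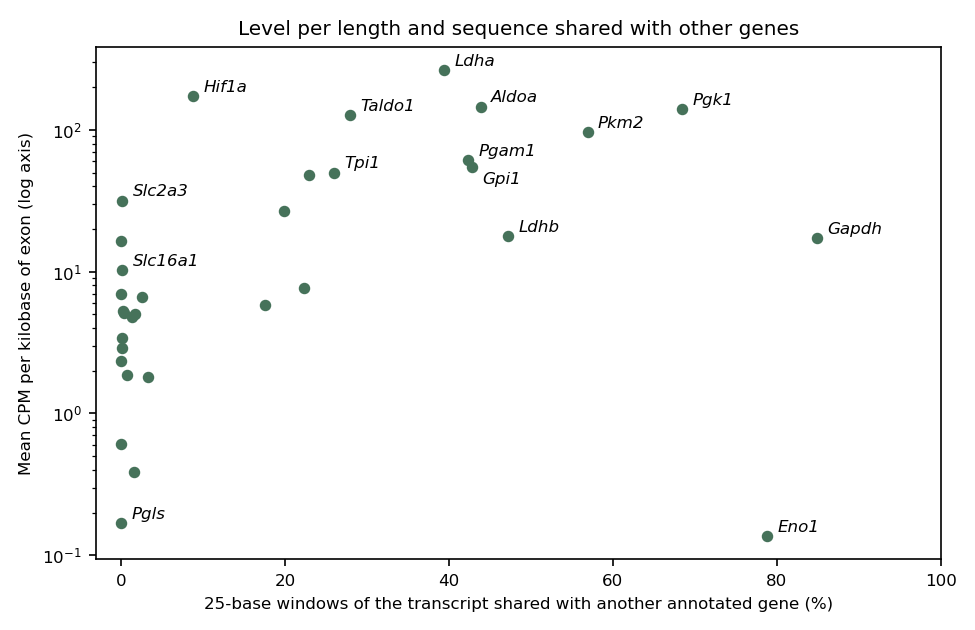
Mean level of each detected pathway gene over the 2 libraries, in CPM per kilobase of merged exon (vertical, log axis), against the percent of 25-base windows of its transcript that occur in another annotated gene (horizontal). Gapdh and Eno1 are the points farthest to the right; Eno1 lies at the bottom of the plot, while Pgk1 and Pkm2, also with large shared parts, lie near the top.

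Lactate dehydrogenase is a tetramer of A subunits, which favour lactate formation, and B subunits, which favour its oxidation. Ldha, the highest of the enzyme genes, had 3773 counts (925 CPM, 279 CPM per kilobase) with IL-33 and 1285 counts (817 CPM, 247 CPM per kilobase) with PBS, and a ratio of 1.13 (1.06 to 1.21). It lies on chromosome 7, 46841475 to 46855627, plus strand. Ldhb, on chromosome 6, 142490249 to 142507957, minus strand, had 196 counts (48.0 CPM) and 13 counts (8.26 CPM), a ratio of 5.81 (3.32 to 11.1). Ldhb took 4.94% of lactate dehydrogenase counts (4.31 to 5.66) with IL-33 and 1.0% (0.586 to 1.71) with PBS. Corrected for length, those shares were 9.87% and 2.09%, so Ldha predominated in both. The sum of the pair was 973 CPM and 825 CPM, a ratio of 1.18 (1.11 to 1.26), the highest of the multi-gene steps together with fructose 2,6-bisphosphate control.

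Lactate leaves through the monocarboxylate transporters MCT1 and MCT4. Slc16a1, which encodes MCT1, had 104 counts (25.5 CPM) and 102 counts (64.8 CPM), a ratio of 0.393 (0.296 to 0.522; chromosome 3, 104638668 to 104658462, plus strand). Slc16a3, which encodes MCT4, a transporter best known for lactate export, had 24 counts (5.88 CPM) and 1 count (0.635 CPM), and the ratio of 9.26 had bounds of 1.51 and 381. The transporters were thus on opposite sides of the comparison, though Slc16a1 remained the main one, at 81.2% of counts (73.6 to 87.1) with IL-33 and 99.0% (94.7 to 99.8) with PBS. Their sum was 31.4 CPM and 65.5 CPM, a ratio of 0.479 (0.367 to 0.627). Emb, which encodes embigin, a membrane partner of these transporters, was the most abundant of the related genes at 795 CPM and 707 CPM. Bsg, the partner basigin, was at 17.2 CPM and 10.8 CPM, with a ratio of 1.59 (0.925 to 2.88).

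**Figure D5:**
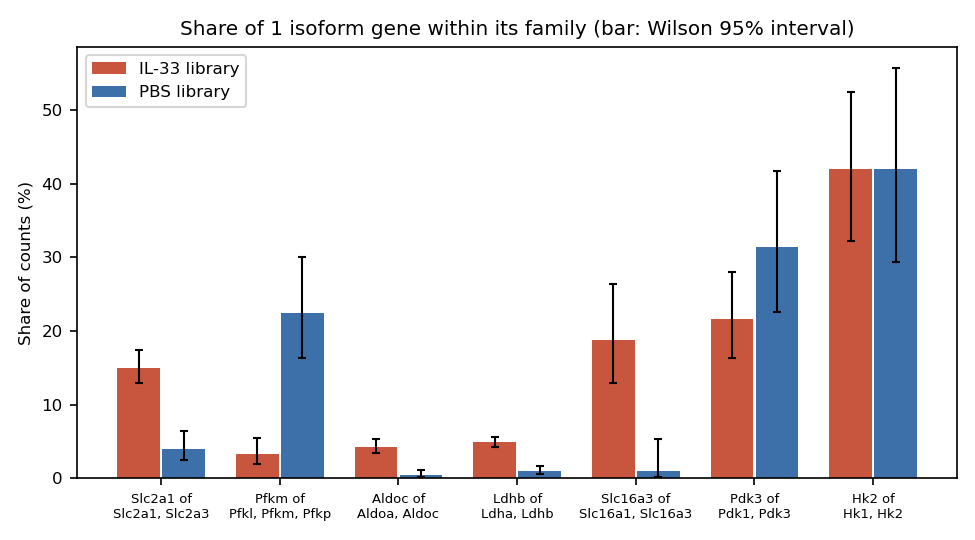
Share of counts (vertical, percent) taken by 1 gene of each isoform family in the IL-33 library (red) and the PBS library (blue), with Wilson 95% intervals as error bars. The intervals do not overlap for Slc2a1, Pfkm, Aldoc, Ldhb and Slc16a3, and they overlap for Pdk3 and Hk2. The genes with separate intervals are all among the 7 past 2-fold, so their separation is not a result apart from those calls. Over all 9005 genes, the counting interval of the ratio lay above 1 for 28.6% and below 1 for 35.1%.

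The oxidative branch of the pentose phosphate pathway makes NADPH. G6pdx, its entry enzyme, had 72 counts (17.6 CPM) and 46 counts (29.2 CPM), a ratio of 0.604 (0.411 to 0.894). Pgd, the second NADPH-yielding dehydrogenase, had 140 counts (34.3 CPM) and 87 counts (55.3 CPM), a ratio of 0.621 (0.472 to 0.821). Pgls, the lactonase between them, was listed with 0 counts and 2 counts, below the level at which a comparison can be made. Both dehydrogenases were lower in the IL-33 library by a like ratio, within 2-fold, and the sum of the branch was 52.0 CPM against 85.8 CPM, a ratio of 0.606 (0.486 to 0.757). H6pd, a related dehydrogenase of the endoplasmic reticulum, was level at 22.3 CPM and 22.2 CPM.

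The non-oxidative branch interconverts sugar phosphates. Tkt, transketolase, had 516 counts (126 CPM) and 182 counts (116 CPM), and Taldo1, transaldolase, had 1228 counts (301 CPM) and 392 counts (249 CPM), with ratios of 1.09 (0.922 to 1.30; 1.19 and just above counting error under TMM) and 1.21 (1.08 to 1.36). Rpe, an epimerase, was at 78.7 CPM and 87.7 CPM, with a ratio of 0.897 (0.733 to 1.10). Rpia, the isomerase that yields ribose 5-phosphate, was lower with IL-33, with 30 counts (7.35 CPM) against 28 counts (17.8 CPM), a ratio of 0.413 (0.239 to 0.718; chromosome 6, 70765720 to 70792232, minus strand). The 4 genes summed to 513 CPM and 470.2 CPM, a ratio of 1.09 (1.0 to 1.19), and without Taldo1 to a ratio of 0.961. Over both branches the 7 pentose phosphate genes gave 565 CPM and 556 CPM, a ratio of 1.02 (0.940 to 1.10), which TMM scaling moved to 1.11 (1.02 to 1.2).

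Pyruvate enters mitochondria and is oxidised by the pyruvate dehydrogenase complex, which PDK kinases switch off and PDP phosphatases switch on. Pdha1, the catalytic subunit that both act on, was level, with 728 counts (178 CPM) and 282 counts (179 CPM) and a ratio of 0.996 (0.866 to 1.15). Pdk1 was level too, at 36.5 CPM (149 counts) and 37.5 CPM (59 counts), and Pdk3 had 41 counts (10 CPM) and 27 counts (17.2 CPM), a ratio of 0.586 (0.352 to 0.990) whose interval held 1 under TMM scaling (0.382 to 1.08). Among related genes, the phosphatase gene Pdp1 had 143 counts (35 CPM) against 6 counts (3.81 CPM), a ratio of 9.19 (4.12 to 25.5), and Pdp2 had 52 against 9, a ratio of 2.23 (1.09 to 5.14). Brp44, an older symbol of the mitochondrial pyruvate carrier gene Mpc2, was at 66.4 CPM and 24.8 CPM, a ratio of 2.68 (1.91 to 3.85). Its partner Brp44l (Mpc1) was level at 177 CPM and 192 CPM. Pdhx, which anchors a subunit of the complex, was lower in the IL-33 library at 0.340 (0.223 to 0.518).

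Hif1a was the most abundant gene of the set in CPM and was close to level between the libraries. It had 4217 counts (1033 CPM, 175 CPM per kilobase) and 1567 counts (996 CPM, 169 CPM per kilobase), a ratio of 1.04 (0.979 to 1.10; chromosome 12, 73901375 to 73947530, plus strand). That interval held 1, whereas those under TMM scaling (1.13, 1.06 to 1.2) and DESeq2 size factors (1.12, 1.06 to 1.19) lay above it. Arnt, which encodes the partner subunit of HIF-1, was higher in the IL-33 library, with 157 counts against 22, a ratio of 2.75 (1.76 to 4.52). Epas1, which encodes HIF-2 alpha, was lower but thinly counted, with 7 counts (1.72 CPM) and 12 counts (7.63 CPM), a ratio of 0.225 (0.075 to 0.62). Egln1, the main oxygen-sensing hydroxylase that marks HIF-1 for destruction, was at 149 CPM and 267 CPM, a ratio of 0.556 (0.491 to 0.632), within 2-fold. Of 15 known HIF-1 targets outside the pathway, 11 passed the floor, 1 was 2-fold higher (Bnip3, with 51 counts against 0, at least 6.56-fold against 3 counts) and 0 were lower, against 15.5% and 16.3% of all genes over the floor. Bnip3l, the most abundant of them, was level at 571 CPM and 591 CPM.

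Across the lists of related genes (92 genes in the table, 60 of them over the floor), 11 (18.3%) were 2-fold higher and 8 (13.3%) lower, near the background of 15.5% and 16.3%, and their median log2 fold was 0.09. Idh3g, of the tricarboxylic acid cycle, was among the higher genes and is given below. The other higher genes not yet named were Slc2a8, 9630033F20Rik and Rbks. Slc2a8, an intracellular glucose transporter gene, had 32 counts against 0 (at least 4.11-fold against 3 counts). 9630033F20Rik, an older symbol of the glycolysis inhibitor gene Tigar, had 28 against 0 (at least 3.6-fold by the same floor). The ribokinase gene Rbks had 69 against 0 (at least 8.87-fold by that floor). Related genes that were lower included Pgm2 at 0.443 (0.345 to 0.569) and Pgam5, a mitochondrial phosphatase, at 0.327 (0.246 to 0.434). The transketolase-like gene Tktl1 was lower too but thinly counted, with 5 counts and 9 counts.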

How the data were processed

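RNA was measured in 1 library of muscle Treg cells per group. The authors deposited raw counts, whole numbers per gene symbol. TopHat2 2.0.10, Cufflinks 2.2.1 and mm10 are named per the submitters' processing notes; as to the counting program, annotation, strand use and handling of reads with several matches, each is not given in the sources used here. Per the labels' protocols, poly(A) RNA was amplified, with no molecular identifiers named, so reads are not independent molecules. Columns were tied to samples by name, with 0 columns unused and 0 rows without a gene name.

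CPM is the count divided by the sum of its column. Genes reaching 5 CPM in either library were compared on log2(CPM + 1), with calls at 2-fold. Ratios are of CPM without the pseudocount, with exact conditional (Clopper-Pearson) 95% intervals, and shares have Wilson intervals. A count of 0 was read as up to 3 counts per library, and folds against it take the other library's count as exact. With 1 library per group no test was run. The pathway genes and the lists of related and marker genes were chosen with earlier results of these data known. All pathway genes are named; of related genes, those past 2-fold and the 4 most abundant are, and any other was chosen after its values were seen (H6pd, Egln1, Brp44l and Bsg).

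Positions and lengths come from GENCODE M21 (GRCm38, the assembly mm10 names), where 33 genes matched by symbol and Pkm2 by its newer name, and upstream sequences from RefSeq GRCm38.p6. Alternatives were TMM and DESeq2 scaling, totals without the 20 most abundant genes of either library, other pseudocounts and floors, and other length corrections. Python 3.11.15, numpy 2.4.6, pandas 2.3.3, scipy 1.17.1, matplotlib 3.10.9, R 4.3.3, edgeR 4.0.16 and DESeq2 1.42.0 were used. The code for calls and intervals was run on simulated Poisson counts, with changes set only in genes of at least 20 CPM. That simulation holds no amplification and no variation between mice, so it does not show how reliable the calls in these libraries are.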

Additional observations from a re-analysis of the deposited data

How the results depend on the processing

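The counts of 4 genes higher and 3 lower were the same under TMM scaling, DESeq2 size factors, totals without the 20 most abundant genes and a pseudocount of 0.5 CPM. A pseudocount of 5 CPM gave 3 and 2, losing Slc16a3 and Rpia, and no floor gave 6 and 4, adding genes of few counts. A floor of 20 CPM in the mean gave 2 higher and 1 lower of 22 genes, where 7.0% and 9.63% of all genes were called. The shares of all genes were 12.7% and 11.9% with the pseudocount of 5 CPM, and 18.5% and 14.7% with no floor. Of the 7 genes past 2-fold, 5 kept their call under all 5 settings of scale and pseudocount. Only Gapdh, Gpi1, Pdha1 and Pdk1, each with a log2 fold of -0.07 or nearer to 0, changed sign among these settings.

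The median log2 fold of the pathway genes was 0.05 under TMM and 0.04 under DESeq2 factors, within 0.01 of the median of all genes under each. The ratio of all 34 genes was 1.07 under TMM, 1.06 under DESeq2 factors and 1.02 without the 20 most abundant genes. Under TMM and DESeq2 factors respectively, the step ratios beyond their counting interval were 0.982 and 0.977 for upper glycolysis, 0.971 and 0.966 for lower glycolysis, 1.28 under both for lactate dehydrogenase, and 1.13 and 1.12 for Hif1a. Without its best-counted gene, a sum became 3.31 for glucose entry (without Slc2a3), 0.984 for upper glycolysis (without Aldoa), 1.05 for lower glycolysis (without Pkm2), 5.81 for lactate dehydrogenase (without Ldha), 9.26 for lactate export (without Slc16a1) and 0.961 for the non-oxidative branch (without Taldo1), each by construction the ratio of the genes left.

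Of 9 isoform families, 7 had the same leading gene in both libraries per merged exon length, 8 per longest transcript and 9 by counts alone. No paired analysis was possible because each group held 1 library, and for the same reason none was left out. The PBS library, 2.59 times shallower, limits the intervals: Aldoc, Slc16a3 and Pfkl had 3 counts or fewer there.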

Other observations

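The tricarboxylic acid cycle, which oxidises the acetyl groups that pyruvate dehydrogenase supplies, was counted in full: its 16 genes were all over the floor, with sums of 2250 CPM (IL-33) and 2265 CPM (PBS) and a median log2 fold of 0.03. Idh3g, a regulatory subunit of isocitrate dehydrogenase, was higher with IL-33 at a ratio of 2.34 (exact 95% counting interval 1.83 to 3.03). Sucla2 and Suclg2, the alternative beta subunits of succinyl-CoA synthetase, were lower at 0.346 (0.256 to 0.467) and 0.458 (0.374 to 0.561), and Fh1, fumarase, at 0.376 (0.288 to 0.491). The share of these 16 genes past 2-fold in either direction was 4 of 16, against 31.8% of all genes over the floor. Mdh2, malate dehydrogenase and the most abundant of them, was level at 470.3 CPM and 463 CPM. The subunits of succinate dehydrogenase were unequal: Sdha was at 214 CPM and 306 CPM and Sdhb, chosen after its values were seen, at 229 CPM and 138 CPM. Each of these differences compares 1 library with 1 library.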
